A study of Bos taurus with 3 samples.

Results

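SLC3A2, SLC43A2 and SLC38A5 encode proteins that move amino acids across the cell membrane, and they were followed through the onset of lactation in bovine mammary tissue. They were chosen by their gene symbols, and make up 3 of the 9154 genes that had a tag in any library. SLC3A2 and SLC43A2 were downregulated at −7 d compared with −35 d. At +3 d, SLC43A2 was upregulated compared with −7 d and SLC38A5 was upregulated compared with −35 d, while SLC3A2 stood at 42.8% of its −35 d level.

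The tissue was taken by biopsy from 18 Holstein cows that formed 3 groups of 6 by their day relative to parturition: day 35 before it (−35 d, the dry period), day 7 before it (−7 d, stage I of lactogenesis) and day 3 after it (+3 d, stage II). The cows received no treatment that the labels name, their genotype beyond the breed is not given, and the sources used here state that they were of the same age without giving it. The tissue of the 6 cows of a group was pooled before RNA isolation and gave 1 library per time point. Digital gene expression profiling (DGE) was used, in which each transcript yields a tag of 21 bases next to a CATG site near its 3′ end. Levels are therefore given as tags and as TPM, the tags of a gene per 1000000 clean tags of the library, with no scaling by transcript length.

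A mammary gland that makes milk protein takes its amino acids from the blood, through carriers that differ in the amino acids they accept and in the ions that drive them. SLC3A2, also called the CD98 heavy chain, carries no amino acid itself. It is a glycoprotein that binds a light chain of the SLC7 family by a disulfide bridge and brings it to the plasma membrane, where the light chain exchanges amino acids. SLC43A2 is a sodium-independent facilitative carrier of large neutral amino acids such as leucine, phenylalanine and methionine, and needs no heavy chain. SLC38A5 is a sodium-coupled carrier of system N, which moves glutamine, asparagine, histidine, serine and glycine.

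The 3 libraries held from 5593237 to 5914422 clean tags, of which 40.5% to 53% fell on genes listed in the tables. With 6 cows in a single pool, no spread between cows or between libraries could be measured, and every interval and p-value below covers counting error of tags only. A difference between these libraries cannot be told apart from a difference between the pools of cows. In pooled whole tissue, fewer cells of a type and less RNA per cell cannot be told apart either. The secretory markers moved with the time points: all 5 (the caseins CSN1S1, CSN2 and CSN3, the whey protein LALBA and BTN1A1 of the milk fat globule membrane) were upregulated in each comparison, and their summed level was 2713 TPM at −35 d, 27446 TPM at −7 d and 163836 TPM at +3 d.

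A gene was called up- or downregulated when the Audic-Claverie test, which compares the counts of 2 libraries, gave a Benjamini-Hochberg false discovery rate of at most 0.001 and the TPM differed by at least 2-fold. Among all genes tested, 2.62% were upregulated and 6.45% downregulated in stage I, the comparison of −7 d with −35 d. The shares were 3.12% and 10.4% in stage II, the comparison of +3 d with −7 d, and 2.33% and 16.3% over both stages, the comparison of +3 d with −35 d. Against these shares stood 2 of the 3 genes downregulated in stage I, 1 upregulated in stage II, and 1 upregulated and 1 downregulated over both stages. Each of the 3 genes was represented by 1 accession, and no other gene of the RefSeq annotation of assembly ARS-UCD2.0 overlapped any of them. That annotation holds 2 transcripts of SLC3A2 and 5 each of SLC43A2 and SLC38A5. Whether transcripts with another 3′ end gave tags that were not counted was not tested.

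**Figure D1:**
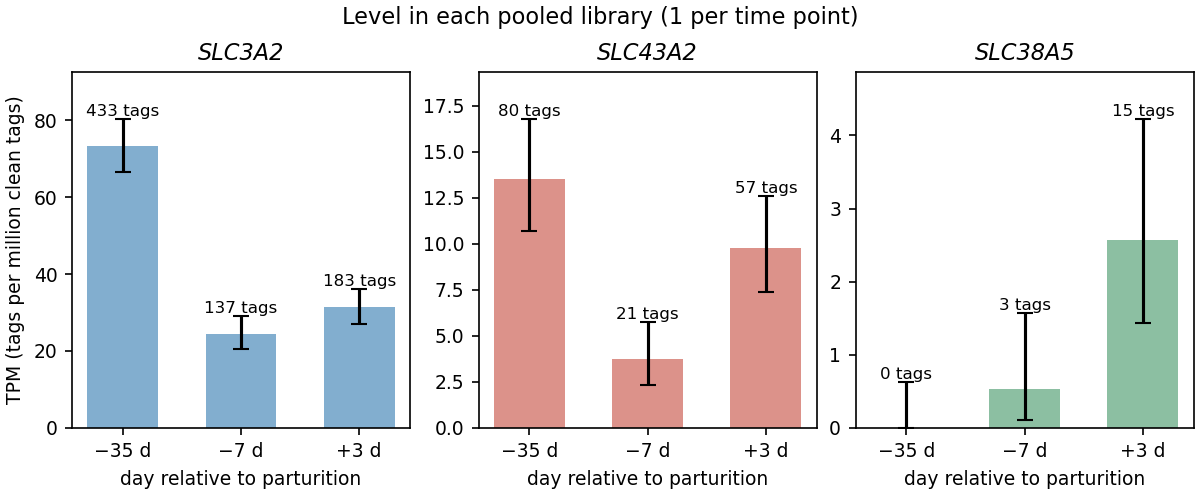
Level of SLC3A2, SLC43A2 and SLC38A5 (TPM, vertical axis, scaled separately for each gene) in the −35 d, −7 d and +3 d libraries, with exact Poisson 95% intervals as error bars and the number of tags above each bar. SLC3A2 and SLC43A2 were lowest at −7 d, and SLC38A5, not listed at −35 d and drawn as 0 tags, was highest at +3 d.

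SLC3A2 (NM_001024488.2), the heavy chain, had 433 tags in the −35 d library, 137 in that of −7 d and 183 in that of +3 d. These counts gave 73.2 TPM (95% interval 66.5 to 80.4), 24.5 TPM (20.6 to 29) and 31.3 TPM (26.9 to 36.2). The −35 d library stood above the other two with no overlap of the intervals, while those of −7 d and +3 d overlapped.

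In stage I, SLC3A2 was 2.99-fold lower, with a log2 ratio of −1.58 (95% interval −1.87 to −1.30) and an adjusted p of 8.67e-32 by the Audic-Claverie test. Of the 7556 genes with over 3 tags in both libraries, 3.4% had a lower ratio. In stage II the log2 ratio of SLC3A2 was 0.35 (0.03 to 0.68) with an adjusted p of 0.0643, so the difference between these 2 libraries was not called. Over both stages SLC3A2 was 2.34-fold lower, with a log2 ratio of −1.23 (−1.48 to −0.97) and an adjusted p of 1.13e-22.

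Whether the fall of SLC3A2 over both stages passed the 2-fold threshold depended on how the libraries were scaled. The median log2 ratio of the 5902 genes whose mean reached 5 TPM was −0.16 in stage I, −0.34 in stage II and −0.52 over both. Meanwhile 5 genes that each held over 1% of a library took up 0.348% of the tags in the −35 d library, 4.13% in the −7 d library and 22.6% in the +3 d library. Relative to the median gene, the log2 ratio of SLC3A2 was −1.42 in stage I, 0.69 in stage II and −0.71 over both. After edgeR's TMM scaling, which assumes that most genes do not change, SLC3A2 was still downregulated in stage I (−1.39). Over both stages it was still lower (−0.73, adjusted p of 3.37e-08 by the Audic-Claverie test), but by less than 2-fold, so it was no longer called. With that scaling 8.12%, 10.8% and 11.2% of genes were called in either direction in the 3 comparisons, and the balance of directions turned: 378 genes were higher and 350 lower in stage I, 516 higher and 430 lower in stage II, and 560 higher and 444 lower over both.

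**Figure D2:**
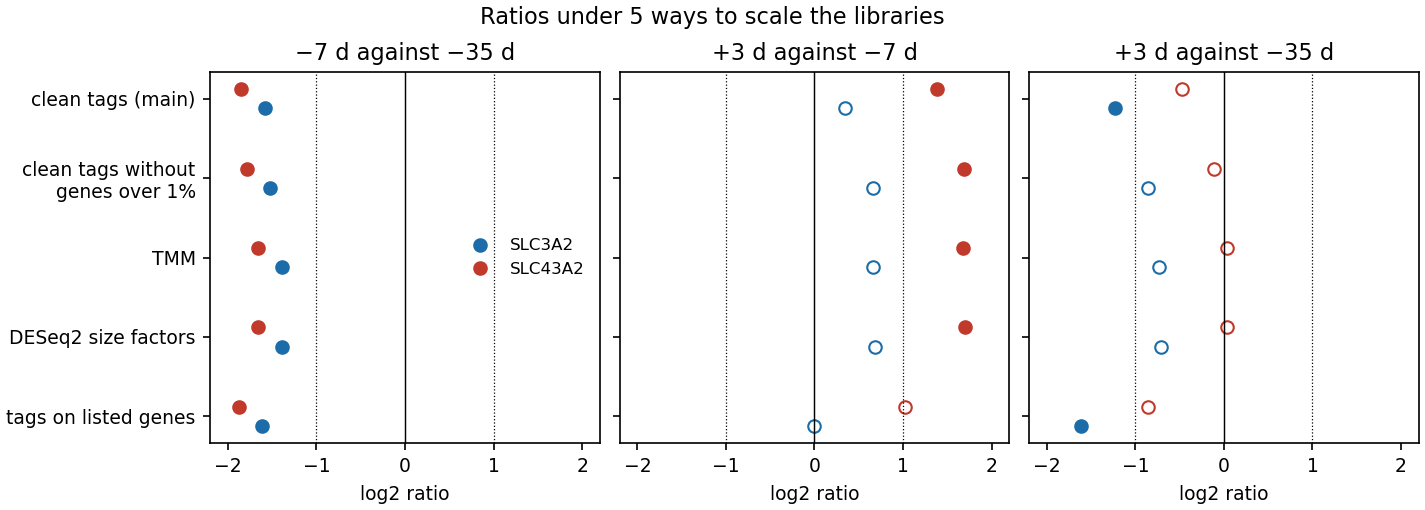
The log2 ratio (horizontal axis) of SLC3A2 in blue and SLC43A2 in red in each comparison, under 5 ways to scale the libraries (vertical axis), with filled points for called differences and dotted lines at the 2-fold threshold. Both genes were called lower in stage I (left panel) under all 5, whereas over both stages (right panel) SLC3A2 was called at −1.23 with the main scaling and not called at −0.71 with DESeq2 size factors.

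SLC43A2 (NM_001075546.1), the facilitative carrier, had 80 tags in the −35 d library, 21 in that of −7 d and 57 in that of +3 d. Its level was 13.5 TPM (95% interval 10.7 to 16.8), 3.75 TPM (2.32 to 5.74) and 9.75 TPM (7.38 to 12.6). The −7 d library was the low one and did not overlap either of the others, and the intervals of −35 d and +3 d overlapped.

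In stage I SLC43A2 was downregulated 3.6-fold, with a log2 ratio of −1.85 (95% interval −2.62 to −1.14) and an adjusted p of 8.49e-08 by the Audic-Claverie test. A lower ratio was found for 1.84% of the genes with over 3 tags in both libraries. In stage II it was upregulated 2.6-fold, with a log2 ratio of 1.38 (0.63 to 2.17) and an adjusted p of 0.000335, and 97.3% of the 7425 genes with over 3 tags in both libraries had a lower ratio. This rise was not called where each library was scaled to its tags on listed genes (log2 ratio 1.02). Between −35 d and +3 d the log2 ratio of SLC43A2 was −0.47 (−0.99 to 0.04) with an adjusted p of 0.102, and it was 0.03 after TMM scaling, so no direction can be given for these 2 libraries.

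SLC38A5 (NM_001015580.1), the system N carrier, was not listed at −35 d and had 3 tags at −7 d and 15 at +3 d. A gene with no tag listed may still have had up to 3 tags, which is 0.507 TPM at −35 d. The other libraries gave 0.536 TPM (95% interval 0.111 to 1.57) and 2.57 TPM (1.44 to 4.23). The +3 d library was the high one, and the levels at −35 d and −7 d lay at or under the floor of 3 tags, so no fold was computed between those 2 libraries.

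Over both stages SLC38A5 was 5.06-fold higher against the floor of 3 tags at −35 d. This value leaves out the counting error of its 15 tags at +3 d, so it is not a lower limit. The adjusted p of 9.77e-05 by the Audic-Claverie test took the −35 d count as exactly 0 tags, and none was computed for a higher count. In stage II, with 3 against 15 tags, its ratio was 4.78, with a counting interval of 1.35 to 25.8. The adjusted p was 0.0159 by the Audic-Claverie test, which did not pass the threshold. The 0 and 3 tags of stage I gave an adjusted p of 0.203. A difference in the level of SLC38A5 between −35 d and −7 d was thus not detectable at this depth.

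None of these calls allowed for variation between animals. When a biological coefficient of variation of 0.2 was assumed in edgeR's exact test, 0.602%, 1.82% and 1.74% of all genes were called in the 3 comparisons, and none of the 3 genes was. The adjusted p of SLC3A2 in stage I was then 0.0174 by edgeR's exact test, that of SLC43A2 was 0.0304 in stage I and 0.134 in stage II, and that of SLC38A5 over both stages was 0.0073.

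The 3 genes did not keep the same proportions to each other, a comparison that no scaling of the libraries can alter. Changes in these ratios are stated at a threshold of 0.05 on the adjusted p, looser than the 0.001 of the calls above. SLC3A2 had 5.41 tags per SLC43A2 tag at −35 d, 6.52 at −7 d and 3.21 after parturition. The ratio changed by a factor of 1.21 (95% interval 0.706 to 2.13) in stage I, with an adjusted p of 0.548 by Fisher's exact test over 9 comparisons of this kind. It changed by a factor of 0.492 (0.27 to 0.872) in stage II and 0.593 over both stages, with an adjusted p of 0.02 for each by the exact test. In stage II, therefore, SLC43A2 rose relative to SLC3A2. Over both stages, with its unlisted −35 d count taken as 0 tags, SLC38A5 rose relative to SLC3A2 (adjusted p of 1.74e-07 by the exact test) and SLC43A2 (2.6e-05). In stage I, where SLC3A2 and SLC43A2 fell, the 0 and 3 tags of SLC38A5 gave an adjusted p of 0.0215 relative to SLC3A2 and 0.02 relative to SLC43A2 by the exact test. In stage II, SLC38A5 rose relative to SLC3A2 by the same test (adjusted p of 0.0371, with 3 tags of SLC38A5 at −7 d), and its ratio to SLC43A2 gave an adjusted p of 0.548.

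Because SLC3A2 takes part in amino acid transport through its light chains, its partners of the SLC7 family were set beside it. SLC7A5, which exchanges large neutral amino acids, had 145, 95 and 59 tags in the 3 libraries, in the order of time. SLC7A6 and SLC7A7, which exchange cationic for neutral amino acids, had 21, 30 and 13 tags and 107, 83 and 98 tags. SLC7A10, a carrier of small neutral amino acids, had 8, 14 and 11 tags, and SLC7A8 and SLC7A11 were not listed in any library. Of these light chains, only SLC7A5 was called in any comparison, over both stages (log2 ratio −1.28, adjusted p of 1.06e-08 by the Audic-Claverie test), a call that was lost after TMM scaling.

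SLC3A2 fell relative to each of these 4 light chains in stage I. Its tags per SLC7A5 tag went from 2.99 (95% interval 2.47 to 3.63) at −35 d to 1.44 (1.1 to 1.89) at −7 d and 3.1 (2.3 to 4.23) at +3 d. The change was 0.483-fold (0.346 to 0.676) in stage I, with an adjusted p of 3.89e-05 by Fisher's exact test over 12 comparisons, and 2.15-fold (1.43 to 3.25) in stage II (adjusted p of 0.000267 by the exact test). The heavy chain had dropped further than this light chain at −7 d, and at +3 d their ratio differed from that of −35 d by a factor of 1.04 (0.724 to 1.5).

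The other light chains were compared in the same way, and whether their changes differed from each other was not tested. The tags of SLC3A2 per SLC7A6 tag were 20.6, 4.57 and 14.1, with adjusted p of 3.32e-06 in stage I and 0.00174 in stage II by the exact test. Per SLC7A7 tag they were 4.05, 1.65 and 1.87, with adjusted p of 3.32e-06 in stage I and 0.56 in stage II by the exact test. The change relative to SLC7A7 in stage II was 1.13-fold (0.77 to 1.66), and over both stages the ratio changed 0.461-fold (0.33 to 0.647), with an adjusted p of 1.57e-05 by the exact test. Per SLC7A10 tag they were 54.1, 9.79 and 16.6, with adjusted p of 0.000267 in stage I and 0.287 in stage II by the exact test. These ratios were compared after the values were seen.

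**Figure D3:**
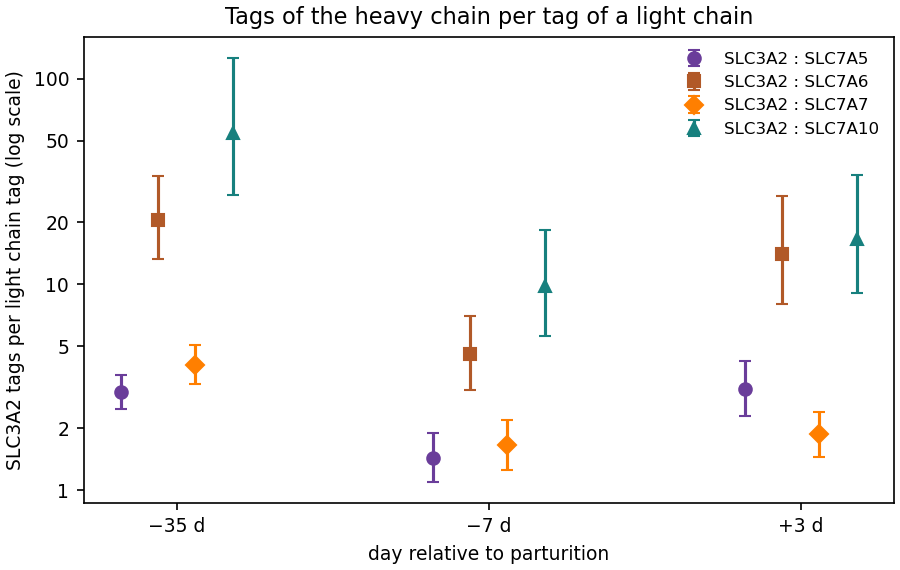
Tags of SLC3A2 per tag of each light chain (vertical axis, log scale) in the −35 d, −7 d and +3 d libraries, with exact binomial 95% intervals. All 4 ratios were lowest at −7 d, and at +3 d the ratio to SLC7A5 was 3.1, close to 2.99 at −35 d, whereas that to SLC7A7 was 1.87 against 4.05.

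Of a list of 45 amino acid transporter genes, 22 had a tag in any library and 19 had over 3 tags in a library. In stage I, SLC3A2 and SLC43A2 were the 2 genes of the list that were downregulated, of 21 tested, and SLC6A14 was upregulated. At lower counts, SLC1A5 (29 and 9 tags, log2 ratio −1.61), SLC1A1 (11 and 3, −1.79) and SLC3A1 (13 and 5, −1.30) were also over 2-fold lower but not called. SLC38A3 (8 and 24) and SLC38A10 (4 and 12), at 1.67 each, were over 2-fold higher and not called either. In stage II, SLC43A2 was 1 of 2 upregulated genes of 20 tested, with SLC38A3, and SLC6A14 was downregulated. Where libraries were scaled to their tags on listed genes, neither SLC43A2 nor SLC38A3 was called in stage II, and SLC6A14, SLC7A5 and SLC7A6 were lower. Over both stages, SLC38A5 and SLC38A3 were upregulated and SLC3A2, SLC7A5 and SLC6A14 were downregulated, of 22 tested, and the 3 downregulated calls were lost after TMM scaling. By clean tags, the upregulated genes were 4.76%, 10% and 9.09% of those tested in the 3 comparisons, beside 2.62%, 3.12% and 2.33% of all genes. The downregulated genes were 9.52%, 5% and 13.6%, beside 6.45%, 10.4% and 16.3% of all genes. The median log2 ratio of the 19 listed genes whose mean reached 1 TPM was −0.13, 0.08 and −0.33 in the 3 comparisons, beside −0.19, −0.31 and −0.53 for all genes above that level.

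The transporters that moved differed in kind. SLC6A14, a sodium- and chloride-coupled carrier of neutral and cationic amino acids, had 53, 205 and 18 tags, a peak at −7 d where SLC3A2 and SLC43A2 had their trough. Its log2 ratio was 2.03 in stage I and −3.57 in stage II. SLC38A3, a system N carrier like SLC38A5, had 8, 24 and 66 tags and a log2 ratio of 1.40 in stage II, with an adjusted p of 8.21e-05 by the Audic-Claverie test. Its log2 ratio over both stages was 3.06, and SLC38A3 and SLC38A5 were the 2 upregulated transporters of that comparison. Other members of the SLC38 family were not called in any comparison. SLC38A7 had 46, 29 and 36 tags (log2 ratio −0.34 over both stages), SLC38A10 had 4, 12 and 3, and SLC38A11 had 7, 7 and 4. SLC38A2, a sodium-coupled system A carrier with 884, 997 and 697 tags, was not called in any comparison.

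**Figure D4:**
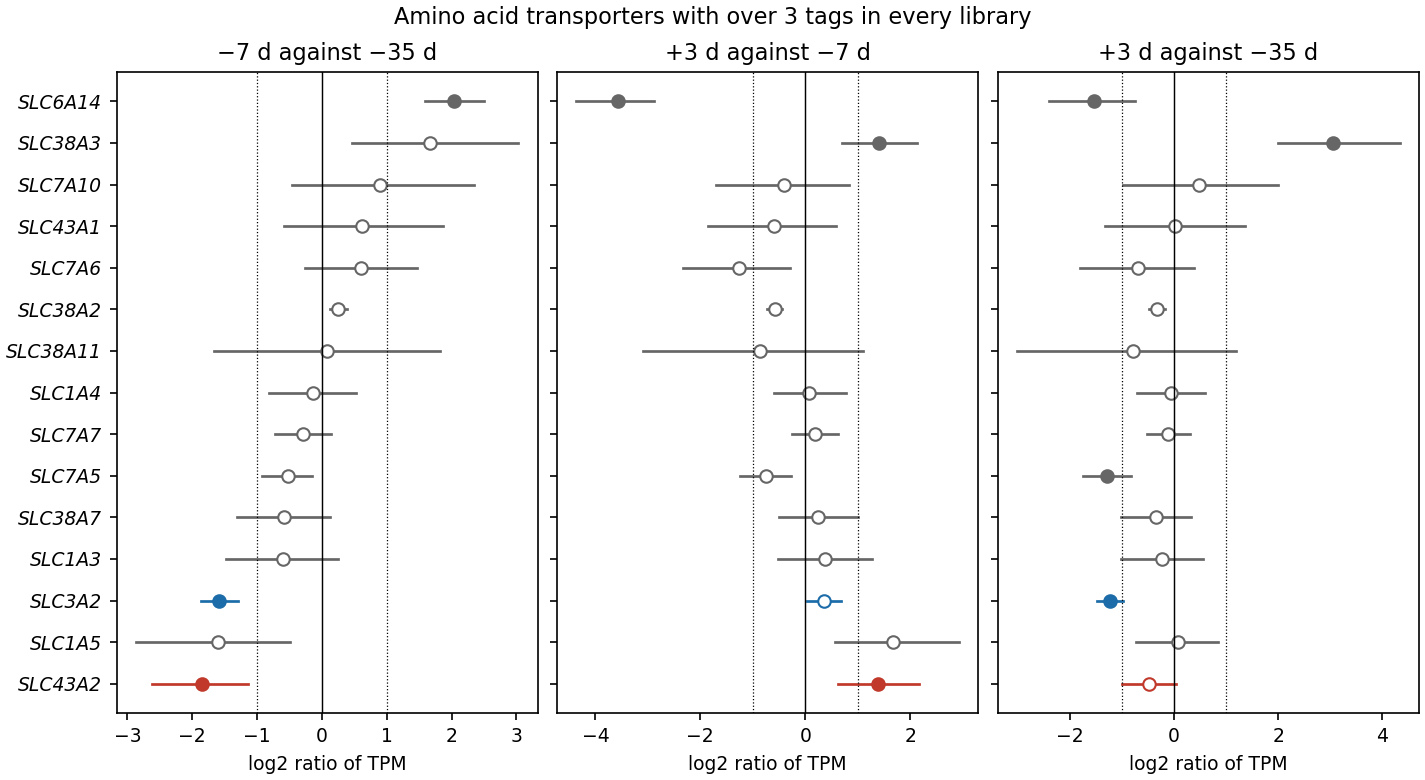
The log2 ratio of TPM (horizontal axis, scaled separately in each panel) with its exact binomial 95% interval for the 15 transporters of the list with over 3 tags in every library, in the 3 comparisons. Filled points were called, dotted lines mark 2-fold, SLC3A2 is blue and SLC43A2 red, and SLC38A5 is not drawn because it had 0 and 3 tags. SLC3A2 and SLC43A2 are the filled points to the left of 0 in the first panel.

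Among 16 other transporters of the list whose mean reached 1 TPM, the one nearest to SLC43A2 in its pattern over the 3 libraries was SLC1A5, an exchanger of neutral amino acids including glutamine. SLC1A5 had 29, 9 and 30 tags and was not called in any comparison by clean tags, but was called higher in stage II after TMM scaling. The distance of its centred log2 levels from those of SLC43A2 was 0.377. The transporter nearest to SLC38A5 was SLC38A3 (1.42), and the one nearest to SLC3A2 was SLC1A1, a glutamate carrier (0.0802), which had 11, 3 and 4 tags.

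Among 7567 genes whose mean reached 1 TPM, the genes nearest in pattern to SLC3A2 were PRMT6, an arginine methyltransferase (distance 0.0476), CD3G, a subunit of the T cell receptor complex (0.0487), and RPS3A, a ribosomal protein (0.0542). CD3G had 237, 78 and 100 tags. Those nearest to SLC43A2 were C2H11orf70 (0.0577), FBN1, which encodes the microfibril protein fibrillin (0.0847), and RCN3, a calcium-binding protein of the endoplasmic reticulum (0.0857). FBN1 had 165, 42 and 123 tags. Within a distance of 0.5 lay 494 genes for SLC3A2 and 199 for SLC43A2, so patterns of this kind over 3 libraries were common. For SLC38A5 no gene lay within 0.5. The nearest were LHCGR, the receptor of luteinizing hormone, and ACTC1, a muscle actin (0.532 each), each with 0, 2 and 18 tags. CIDEA, a lipid droplet protein (0.592), followed with 5, 24 and 186 tags. With 0 tags of SLC38A5 at −35 d, its distances rest on the 0.5 tags added to each count. Among genes whose mean reached 5 TPM, the 3 nearest to SLC38A5 shared 1 gene with these.

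The summed levels of several lists of cell type markers were lower at −7 d than at −35 d, as SLC3A2 and SLC43A2 were, and these sums were not tested. The summed level of the 7 listed of 7 T cell markers was 192, 123 and 130 TPM at −35 d, −7 d and +3 d, none of them at 0, and 2 of them were downregulated in stage I. The 8 listed of 10 macrophage markers summed to 341, 262 and 473 TPM, the 5 of 6 fibroblast markers to 7618, 5728 and 8677 TPM, the 5 of 5 adipocyte markers to 208, 137 and 281 TPM and the 5 of 5 myoepithelial markers to 768, 413 and 742 TPM. In stage I, 3 of 9 macrophage entries (MSR1 had 2), 2 of 7 T cell, 2 of 5 myoepithelial and 1 of 5 adipocyte markers were downregulated. So were 1 of 4 luminal and 0 of 5 fibroblast markers, beside 6.45% of all genes. In stage II, 3 of 9 macrophage entries and 1 of 7 T cell markers were upregulated, beside 3.12% of all genes. The same held for 1 of 5 markers each of myoepithelium, adipocytes and fibroblasts. In stage II 1 of 4 luminal markers was downregulated, beside 10.4% of all genes. Single markers could differ from their list, and the macrophage marker CD14 had 17, 24 and 115 tags. Of the T cell markers, CD2 (180, 144 and 118 tags), CD3E (287, 248 and 213) and CD3D (28, 9 and 6) were lowest at +3 d. CD247, CD8A, LCK and CD3G were lowest at −7 d. KRT14 of myoepithelium (353, 324 and 300), KDR of endothelium (96, 64 and 43) and POU2AF1 of B and plasma cells (24, 22 and 13) were also lowest at +3 d. Of the adipocyte markers, FABP4 (904, 511 and 1428 tags) and PLIN1 (141, 63 and 94) were lowest at −7 d. CIDEC (148, 147 and 91), ADIPOQ (30, 27 and 16) and LEP (7, 16 and 12) were not. The T cell, macrophage, fibroblast, adipocyte, myoepithelial, endothelial, B and plasma cell and neutrophil sums all had their lowest value at −7 d, as SLC3A2 and SLC43A2 did. The luminal and secretory epithelial sums did not. None of the fibroblast, adipocyte or myoepithelial markers was at 0 in any library. The 4 listed of 6 luminal epithelial markers summed to 1074, 805 and 532 TPM. Of these, CDH1 (52, 11 and 17 tags) and KRT8 (1754, 878 and 957) were lowest at −7 d. EPCAM (2944, 1639 and 1229) and ELF5 (1604, 1974 and 907) were lowest at +3 d. The 4 of 5 endothelial markers summed to 51.6, 33.8 and 42.6 TPM. The 3 listed of 6 markers of B and plasma cells summed to 18.9, 13.4 and 15.1 TPM, and the 3 listed of 5 neutrophil markers to 15.6, 8.05 and 10.8 TPM, with S100A12 at 0 at −35 d and +3 d, and none of the endothelial, B cell or neutrophil markers was called in stage I. Markers of erythrocytes were at or near 0, with 2 tags of HBB at −35 d and 3 of ALAS2 at +3 d. The part of any of these cells in the levels of the 3 genes was not tested.

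A shortage of amino acids acts on many transporter genes through the transcription factor ATF4, and leucine acts on growth through the kinase complex mTORC1, so genes of these pathways were set beside the 3 transporters. ATF4 itself had 506, 366 and 379 tags and was not called in any comparison. Of 24 genes of the amino acid response, 19 were tested in each comparison. In stage I, where SLC3A2 fell, PYCR1 (log2 ratio 1.32) and PHGDH (1.20), enzymes of proline and serine synthesis, were upregulated and none was downregulated. In stage II ATF3 (2.13) and NUPR1 (1.10), stress-induced regulators of transcription, were upregulated, and ALDH18A1 (−1.10), PSAT1 (−2.03) and PHGDH (−3.20), enzymes of proline and serine synthesis, were downregulated. Between −35 d and +3 d PYCR1 (1.20) was upregulated and DDIT4 (−1.07), an inhibitor of mTORC1, PSAT1 (−1.47) and PHGDH (−2.00) were downregulated. The upregulated genes were 10.5%, 10.5% and 5.26% of those tested in the 3 comparisons, beside 2.62%, 3.12% and 2.33% of all genes. Downregulated were 15.8% in stage II and 15.8% over both stages, beside 10.4% and 16.3% of all genes. After TMM scaling ALDH18A1 was no longer called in stage II, nor DDIT4 and PSAT1 over both stages, and ATF3 was called higher over both. In stage I NUPR1 (−0.88, adjusted p of 1.34e-17 by the Audic-Claverie test), ATF3 (−1.26, 0.00186) and DDIT4 (−0.60, 1.5e-09) had negative log2 ratios that fell short of the call, and the 0 of 19 genes downregulated stood beside 6.45% of all genes.

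Of 35 genes of amino acid sensing by mTORC1, 15 were tested and none was upregulated in any comparison by clean tags, while after TMM scaling EIF4EBP1, a repressor of translation that mTORC1 inhibits, was higher in stage I and SESN1, a sestrin, in stage II. By clean tags SESN1 (−1.04) was downregulated in stage I, and RRAGB (−1.03), a Rag GTPase, and SEC13 (−1.05), a subunit of the GATOR complex, in stage II. Between −35 d and +3 d RRAGB (−1.07), SEC13 (−1.04), RHEB (−1.07), the GTPase that activates mTORC1, and RPS6KB1, its S6 kinase target with 27, 7 and 3 tags, were downregulated, and after TMM scaling none of the list was downregulated in any comparison. By clean tags, the downregulated genes were 6.67%, 13.3% and 26.7% of those tested in the 3 comparisons, beside 6.45%, 10.4% and 16.3% of all genes. The 0 upregulated stood beside 2.62%, 3.12% and 2.33% of all genes. The median log2 ratio of the response genes was −0.14, −0.46 and −0.51 in the 3 comparisons and that of the sensing genes −0.10, −0.56 and −0.86, beside the medians of all genes given above.

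Among 150 genes with a tag whose symbol begins with SLC and a family number, 5.59% of those tested were upregulated and 6.29% downregulated in stage I. Of all genes 2.62% and 6.45% were. The shares were 3.52% and 13.4% in stage II, beside 3.12% and 10.4% of all genes. Over both stages they were 4.73% and 9.46%, beside 2.33% and 16.3% of all genes. This balance turned with the scaling: 8 higher and 9 lower in stage I became 10 and 5 after TMM scaling, 5 and 19 in stage II became 10 and 12, and 7 and 14 over both became 15 and 5. SLC3A2 and SLC43A2 were 2 of the 9 downregulated in stage I, SLC43A2 was 1 of the 5 upregulated in stage II, and SLC38A5 was 1 of the 7 upregulated over both stages.

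The genes next to the 3 transporters in the ARS-UCD2.0 annotation had other patterns. WDR74, beside SLC3A2, had 138, 96 and 75 tags and was not called in any comparison. PITPNA, beside SLC43A2, had 102, 60 and 34 tags and was called only over both stages, where it was lower. FTSJ1, beside SLC38A5, had 276, 352 and 361 tags and was not called, and SSX5 on its other side had 5, 2 and 0 tags. CHRM1 and SCARF1, the other neighbours of SLC3A2 and SLC43A2, were not listed.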

How the data were processed

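Total RNA of 6 pooled biopsies per time point was made into 1 DGE library each. The authors discarded adaptor reads, tags with an unread base, those of a wrong length and those seen once, and matched the clean tags (CATG and 17 bases) to transcripts of the UMD 3.1 genome with at most 1 mismatch, leaving out tags of several genes. The deposited counts are clean tags per gene, and the deposited TPM are these counts per 1000000 clean tags. Filtering can remove low genes, and a gene not listed was given 0 tags.

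For the two-sided Audic-Claverie p the smaller tail was doubled, with Benjamini-Hochberg adjustment over every gene that had tags in at least 1 of the 2 libraries. The lower tail held the observed count and the upper tail did not, which favoured rises over falls. By Fisher's exact test the rises of SLC43A2 in stage II (adjusted p of 0.000375) and SLC38A5 over both stages (9.91e-05) were also called. A TPM of 0 was set to 0.01 TPM for the 2-fold threshold, and folds used a floor of 3 tags. Intervals of ratios came from exact binomial intervals and those of TPM from exact Poisson intervals, all at 95% and for counting error only. Ratios of 2 genes were compared by two-sided Fisher's exact tests, with a threshold of 0.05 on the adjusted p. Patterns were compared by the Euclidean distance between log2 of tags plus 0.5 on the TPM scale, centred per gene. Medians over lists also used 0.5 added tags.

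Named genes were the 3 transporters, SLC3A2's light chains, called genes of the 3 lists and the 3 genes nearest in pattern. SLC7A10, SLC38A2, SLC38A7, SLC38A10, SLC38A11, SLC3A1, SLC1A1, SLC1A5, ATF4, the chromosomal neighbours and the markers named were added after their values were seen. The members and the lists were chosen with earlier results of these data known. RefSeq symbols of ARS-UCD2.0 matched 7905 of 9154 accessions, and that table served for names and neighbours only. Alternatives were TMM scaling, DESeq2 size factors, 2 other library totals, Fisher's exact test, mid-p, edgeR's exact test with assumed coefficients of variation of 0.2 and 0.4, a 3-fold threshold, a mean of at least 5 TPM and 0.5 added tags. The test was checked on simulated counts. The authors' summary of mapping classes was not used, and antisense tags were not analysed here. Tools were Python 3.11.15, numpy 2.4.6, pandas 2.3.3, scipy 1.17.1, matplotlib 3.10.9, R 4.3.3, edgeR 4.0.16 and DESeq2 1.42.0.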

Additional observations from a re-analysis of the deposited data

How the results depend on the processing

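Of 87 values of the 3 genes under alternatives, 67 kept direction and side of the threshold, 17 lost the call and 3, none of them called, changed sign. The latter were SLC43A2 over both stages (−0.47 by clean tags, 0.03 under TMM and 0.04 under DESeq2 size factors) and SLC3A2 in stage II (0.35 by clean tags, 0.00 with tags on listed genes, just under 0 before rounding). With assumed coefficients of variation of 0.2 and 0.4 in edgeR's exact test, none was called: SLC3A2 at −1.58 and −1.23, SLC43A2 at −1.85 and 1.38, and SLC38A5 at 2.34 (its log2 ratio against the floor of 3 tags). At a 3-fold threshold SLC3A2 (−1.58 and −1.23) and SLC43A2 in stage II (1.38) were not called. From −35 d to +3 d SLC3A2 was not called at −0.73 (TMM), −0.71 (DESeq2 size factors) or −0.86 (totals without genes over 1%), nor was SLC43A2 in stage II at 1.02 (tags on listed genes).

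Counts of called genes moved likewise. With a coefficient of 0.2, transporters went from 3, 3 and 5 in the 3 comparisons to 0, 1 and 1, response genes from 2, 5 and 4 to 0, 1 and 0, and sensing genes from 1, 2 and 4 to 0. With 0.4 each was 0. At 3-fold, transporters were 1 in stage II and 2 from −35 d to +3 d, response genes 0, 3 and 1, and sensing genes 0, 0 and 1. From −35 d to +3 d transporters were 2 under TMM, DESeq2 size factors and totals without genes over 1%. Under these 3, sensing genes were 1 in stage II, and 0, 0 and 1 from −35 d to +3 d. With tags on listed genes, 5 sensing genes were called in stage II, and the 3 transporters called there went from 2 higher and 1 lower to 0 higher and 3 lower.

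A mean of at least 5 TPM gave no comparison for SLC38A5, whose mean lies below it, and left 1 of its 3 nearest genes in pattern. No paired analysis was possible because each time point has 1 library.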
